A study of Homo sapiens with 9 samples.

Results

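The comparison described here is between MDA-MB-468 cells carrying the hairpin shLMO2-1 and the same cells carrying the empty vector: 3 shLMO2-1 libraries against 3 control libraries, chosen by the plasmid named in their labels, or 6 of the 9 libraries of the series. MDA-MB-468 is an established human breast adenocarcinoma line of basal type. Every group was infected with a pSicoR plasmid, a lentiviral vector that expresses short hairpin RNAs: pSicoR without a hairpin in the controls, pSicoR with shLMO2-1 in the cells described here, and pSicoR with shLMO2-2, another hairpin against the same gene, in the remaining 3 libraries. Poly(A) RNA from 200000 cells per library was sequenced. The labels do not say whether the 3 libraries of a group came from separate infections or cultures, so p-values measure only the spread between these libraries, which may be technical. The labels also give neither the time after infection nor whether infected cells were selected.

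LMO2 is a LIM-only adaptor protein without a DNA-binding domain of its own. In blood and endothelial precursors it bridges a complex of LDB1, single-stranded DNA-binding (SSBP) proteins, basic helix-loop-helix factors such as TAL1 and TCF3, and GATA factors, which together sit on paired E-box and GATA sites. A short hairpin RNA is exported from the nucleus by XPO5, cut by DICER1 and loaded into an Argonaute protein, where it lowers transcripts that match it, and partial matches can lower other transcripts as well.

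The table held 15494468 to 23069454 estimated counts per library, and 14709 genes passed the filter on low counts or, for LMO2, were added back to it. Levels are given below in CPM, counts divided by the TMM-scaled library size, library by library in the order of the replicate numbers. A gene is said to have risen or fallen where its adjusted p from edgeR's quasi-likelihood test, with Benjamini-Hochberg adjustment over all tested genes, was under 0.05. For the marker sums, here and below, CPM was instead taken on plain library totals. Of the markers of basal breast epithelium, 14 of 15 were at 1 CPM or more, SOX10 being the exception. Their summed levels were 13130 to 14930 CPM in the controls and 15310 to 16010 CPM in the shLMO2-1 libraries. EGFR alone was at 4820 to 6490 CPM and 6920 to 7880 CPM. Of these markers EGFR, KRT8 and FOXC1 rose, and KRT5, KRT14 and EN1 fell. The list also holds KRT8, a simple-epithelial keratin, so its higher sum does not stand for a rise of the basal keratins. KRT5 alone was at 3180 to 3330 CPM in the controls and 2500 to 2810 CPM in the shLMO2-1 libraries. KRT6A, KRT6B, KRT16 and KRT17 were not called. Markers of other cell types were low, with summed levels over 10 genes each of 13.62 to 23.12 CPM for endothelial cells, 13.88 to 20.13 CPM for fibroblasts and 12.16 to 17.88 CPM for leukocytes across the 6 libraries. EMCN, COL1A2, COL3A1, LUM, CD3E and TYROBP were at 0 in all 6. The log2 difference rose with GC content, from a median of −0.09 in the lowest quintile of coding genes by GC to 0.11 in the highest quintile. Control replicate 1 stood apart from the other controls in this respect, with a median deviation from the control mean of −0.123 in the GC-richest quintile against 0.069 and 0.053 in control replicates 2 and 3. The 3 shLMO2-1 libraries were at 0.075, 0.099 and 0.176 in that quintile.

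LMO2 itself was close to the limit of detection. Its estimated counts were 4, 35 and 19 in the controls and 2, 1 and 6 in the shLMO2-1 libraries. Control replicate 1 thus lay within the range of the shLMO2-1 libraries, and the groups overlapped. In edgeR's test LMO2 came out at −2.44 on the log2 scale (SE 0.81, adjusted p = 0.0906), and the exact two-sided permutation test of the CPM values gave p = 0.2 over 20 splits, of which the smallest possible is 0.1. A fall of LMO2 in cells with shLMO2-1 thus did not pass in this fit. It passed in 3 of the alternatives: without a filter on low counts (−2.43, adjusted p = 0.0253), with the replicate number as a block (−2.30, adjusted p = 0.0417) and without control replicate 1 (−2.91, adjusted p = 0.0236). LMO2 (chromosome 11) also overlaps the annotated gene AC132216.1, and the strand setting of the counting is not given in the sources used here.

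Relative to the controls, 668 of 14709 tested genes rose in shLMO2-1 libraries (4.54%) and 571 fell (3.88%), together 8.42%. These shares are the reference for the counts by gene list below. Most changes were small: 802 of the 1239 were under 1.5-fold, 267 lay between 1.5-fold and 2-fold, and 72 higher (0.489%) and 98 lower (0.666%) genes reached 2-fold. The median log2 difference was 0.46 among the genes that rose and −0.46 among those that fell, against 0.0009 over all tested genes, of which 50.2% were positive. In 1238 of the 1239 genes the 3 shLMO2-1 libraries did not overlap the 3 controls; over all tested genes 14.0% were non-overlapping and higher and 14.3% non-overlapping and lower. All called genes named below are among those 1238. With library totals as the only scaling, the split was 561 higher and 781 lower, and the median of all genes moved by −0.037. Over 17 alternative settings, 419 of the 1239 were called in each. Leaving out control replicate 3 or any 1 of the shLMO2-1 libraries brought the count of called genes to between 560 and 691, so where a named gene did not keep its call in all 17 alternatives, the number that kept it is given. The counts by gene list depended on single libraries as well: of 25 lists with at least 5 calls in 1 direction, 20 lost calls by over 1.5 times when some 1 library was left out. In bulk RNA, fewer cells expressing a gene and less of its RNA per cell cannot be told apart.

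The 12 largest increases among well expressed genes included surface receptors, secreted factors and matrix proteins, which are described first and not in order of size. DPP4, a surface peptidase that trims peptide hormones and chemokines, was at 3.31, 3.33 and 2.85 CPM in the controls and 12.04, 12.01 and 9.76 CPM in the shLMO2-1 libraries, a log2 fold change of 1.83 (SE 0.16, adjusted p = 0.000143). Every shLMO2-1 library was above every control, by 3.56-fold in the fit. CSF3R, the receptor for granulocyte colony-stimulating factor, rose from 3.42, 3.54 and 3.595 to 11.1, 11.02 and 12.8 CPM (1.72, SE 0.12, adjusted p = 3.33e-05), and CA9, a carbonic anhydrase of the cell surface that is a classical hypoxia target, from 7.13, 7.28 and 8.78 to 20.6, 22.9 and 22.9 CPM (1.51, SE 0.11, adjusted p = 4.53e-05). In each of these genes the spread within a group was small beside the gap between groups. INHBA, which encodes the activin A subunit, rose from 11.1, 8.098 and 9.99 to 28.5, 22.2 and 24.7 CPM (1.37, SE 0.13). SEMA6B, a transmembrane semaphorin, rose from 8.99, 10.1 and 11.2 to 24.8, 25.1 and 26.1 CPM (1.33, SE 0.10). SVEP1, a large extracellular matrix protein, rose from 9.39, 7.995 and 7.72 to 21.1, 21.8 and 18.8 CPM (1.30, SE 0.12), and COL12A1, a fibril-associated collagen, from 29.3, 21.3 and 23.8 to 66.3, 80.2 and 53.6 CPM (1.43, SE 0.15).

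The rest of the 12 largest increases were more varied. RARRES1, named for its response to retinoids, was by level the most abundant of the 12, at 82.7, 88.6 and 83.6 CPM in the controls and 208, 185 and 231 CPM in the shLMO2-1 libraries (1.29, SE 0.09). FADS2, the delta-6 desaturase of polyunsaturated fatty acid synthesis, went from 39.6, 46.1 and 42.4 to 94.3, 98.8 and 104 CPM (1.21, SE 0.08). RAB34, a small GTPase of vesicle traffic and cilium formation, rose by 1.45 (SE 0.11), THSD4, a matrix protein of the thrombospondin repeat family, by 1.41 (SE 0.24) and C11orf49 by 1.23 (SE 0.15). THSD4 had the widest spread of the controls among the 12, at 9.86, 4.36 and 6.24 CPM, and still did not overlap the shLMO2-1 libraries at 20.1, 16.6 and 17.4 CPM.

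The largest decreases were deeper than the largest increases. CA2, a cytosolic carbonic anhydrase, stood at 11.5, 12.2 and 12.2 CPM in the controls and 1.18, 1.58 and 1.19 CPM in the shLMO2-1 libraries, a log2 fold change of −3.18 (SE 0.25, adjusted p = 6.66e-05). It thus went in the opposite direction to CA9, the carbonic anhydrase of the cell surface. SH3BGRL, a small thioredoxin-fold protein, fell from 10.9, 11.2 and 8.46 to 1.91, 2.05 and 2.37 CPM (−2.27, SE 0.19), and BMP2, a bone morphogenetic protein, from 12.8, 11.4 and 9.73 to 2.14, 3.05 and 1.85 CPM (−2.26, SE 0.21). NPR3, the clearance receptor for natriuretic peptides, fell from 33.97, 45.8 and 40.3 to 11.9, 10.5 and 11.6 CPM (−1.82, SE 0.13). In each of these 4 genes the highest shLMO2-1 library was far below the lowest control. TDO2, the dioxygenase that opens the kynurenine route of tryptophan breakdown, fell by 1.76 on the log2 scale (SE 0.19), ANOS1, a secreted protein of neuronal migration, by 1.67 (SE 0.18), and PRELP, a leucine-rich matrix proteoglycan, by 1.52 (SE 0.19).

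Among abundant transcripts, CRISP3, a secreted cysteine-rich protein, had the smallest adjusted p of the named genes. Its levels were 108, 112 and 108 CPM in the controls and 45.2, 44.1 and 45.5 CPM in the shLMO2-1 libraries (−1.28, SE 0.06, adjusted p = 2.40e-06). XAGE2, a cancer-testis antigen on the X chromosome, fell from 40.5, 41.4 and 37.9 to 14.6, 16.5 and 18.4 CPM (−1.28, SE 0.10), and PCDH19, an X-linked protocadherin, from 14.7, 8.51 and 9.94 to 4.500, 3.69 and 3.69 CPM (−1.47, SE 0.25). AC126755.2, which overlaps the pseudogene PKD1P5, was the weakest of the 12 decreases (−1.30, SE 0.34, adjusted p = 0.0384) and kept its call in 11 of 17 alternatives. The other 23 genes of the 24 kept theirs in each alternative that gave a value.

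**Figure D1:**
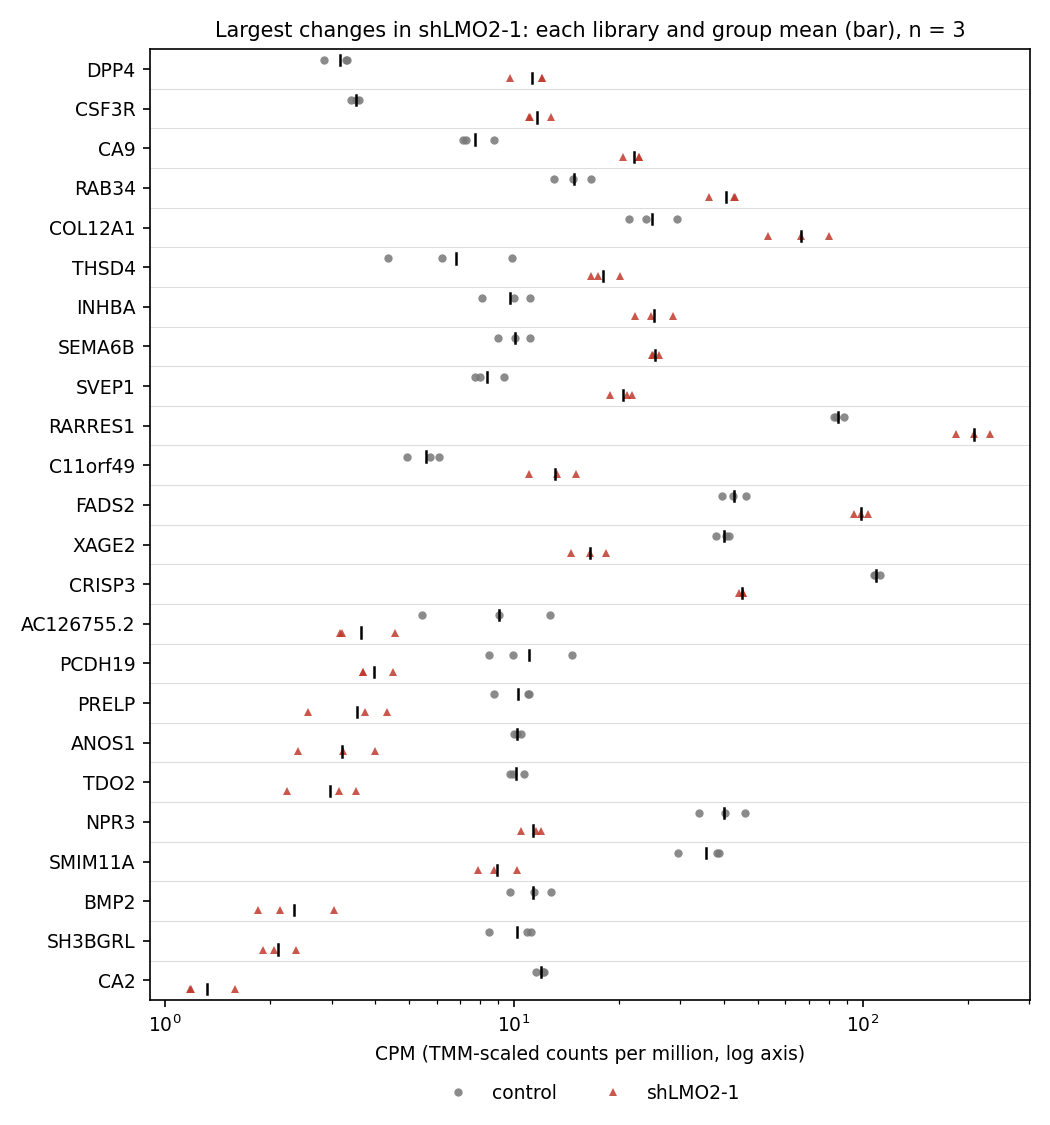
CPM on a log axis for the 12 genes with the largest increase and the 12 with the largest decrease at a mean of 5 CPM or more; grey circles are the 3 control libraries, red triangles the 3 shLMO2-1 libraries, and bars the group means. The symbols of the groups do not overlap for any of the 24 genes, and CA2 shows the widest gap, 11.5, 12.2 and 12.2 CPM against 1.18, 1.58 and 1.19 CPM.

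SMIM11A, the remaining gene of the 12 decreases, has a near-identical copy, and the sum of the pair moved little. SMIM11A (chr21:34375480-34407866) was at 29.6, 38.8 and 38.3 CPM in the controls and 10.2, 7.91 and 8.77 CPM in the shLMO2-1 libraries (−1.99, SE 0.22, adjusted p = 0.000503). SMIM11B (chr21:7744962-7777853) was at 6.899, 0.8200 and 0.211 CPM and 23.1, 22.5 and 25.9 CPM, a fitted log2 fold change of 3.21 (SE 1.26, adjusted p = 0.144). The summed levels were 36.47, 39.62 and 38.49 CPM in the controls and 33.3, 30.42 and 34.62 CPM in the shLMO2-1 libraries, a log2 difference of −0.22. The 2 genes encode the same small membrane protein, and over the 174 bases of coding sequence in the GENCODE 29 transcripts they differ at 0 positions; the sequence is shown because it is the stretch over which reads cannot be told apart, in lower case with no part marked.
SMIM11A and SMIM11B: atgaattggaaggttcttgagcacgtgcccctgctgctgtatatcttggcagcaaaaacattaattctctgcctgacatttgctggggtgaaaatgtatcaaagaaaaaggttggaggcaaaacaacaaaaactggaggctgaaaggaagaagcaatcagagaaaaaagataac
Of 44 groups of tested genes with 1 protein sequence, 9 held a called gene, and in 3 of these the partner of the called gene had a difference of the opposite sign but did not pass the test. Besides SMIM11B, these partners were FAM156A (0.04, adjusted p = 0.947), where the sum of FAM156A and FAM156B had a log2 difference of −0.34, and ZNF320 (1.82, adjusted p = 0.112), where that of ZNF320 and ZNF468 had −0.27. The sign of FAM156A depended on the setting. The split between such copies is uncertain, and the fall of SMIM11A is reported as uncertain for that reason.

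Of 17 tested genes in the list of LMO2 and its possible partners, 2 rose (11.8%, against 4.54% of all genes) and 0 fell. Of the 17, 76.5% were positive, and the median log2 difference was 0.113, against 0.0009 over all genes. The 17 include LMO2 itself, its relatives LMO1 and LMO4, and SP1 and KDM1A, but not TAL1. The list's median deviation by library was −0.032, −0.007 and 0.043 in the controls and 0.143, 0.086 and 0.177 in the shLMO2-1 libraries. List medians did not overlap here, nor in many other lists, among them the WNT, homeobox and axon guidance genes. Such a gap was thus not particular to the LMO2 list. With the GC and length trends removed, the median log2 difference of the LMO2 list was 0.067. In that setting the WNT list went from 0.17 to 0.089, the homeobox list from 0.044 to 0.014 and the axon guidance list from 0.074 to −0.003. Without shLMO2-1 replicate 3 the median log2 difference of the LMO2 list was 0.03. The count of 2 was 0 without shLMO2-1 replicate 1 or 2 and 1 without control replicate 2 or 3, shLMO2-1 replicate 3 or any shLMO2-2 library. SSBP3, a single-stranded DNA-binding cofactor that stabilises LDB1, was at 92.9, 93.3 and 98.1 CPM in the controls and 117, 115 and 111 CPM in the shLMO2-1 libraries (0.27, SE 0.06, adjusted p = 0.018, kept in 13 of 17 alternatives). TCF3, which encodes the E2A factors, rose by 0.20 (SE 0.06, adjusted p = 0.0456) and kept that call in 4 of 17. Of 36 tested genes that process microRNAs and hairpins, 0 rose and 2 fell. XPO5, the export factor for hairpin RNAs, fell from 146, 145 and 149 to 113, 109 and 111 CPM (−0.40, SE 0.06, adjusted p = 0.00227). XPO5 lies on chromosome 6, where 75 of 777 tested genes fell. PNPT1, a mitochondrial RNA exonuclease, fell by 0.32 on the log2 scale (SE 0.08, kept in 10 of 17).

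Among the genes of protein synthesis, the called transcripts of the ribosome's own proteins all rose and those of the factors that assemble ribosomes all fell. Of 85 tested cytosolic ribosomal protein genes, 15 rose (17.6%, against 4.54% of all genes) and 0 fell. Of the 85, 82 (96.5%) had a positive log2 difference, and the median was 0.255. By library, the list's median deviation from the control mean was −0.188, 0.177 and 0.022 in the controls and 0.111, 0.215 and 0.394 in the shLMO2-1 libraries. Control replicate 2 lay above shLMO2-1 replicate 1 on that measure, so the groups overlapped. RPS29, a small-subunit protein, rose from 55.7, 65.8 and 53.9 to 82.01, 99.98 and 106 CPM (0.72, SE 0.11, adjusted p = 0.00354), and RPL11, a large-subunit protein that also binds MDM2, from 475, 483 and 472 to 586, 639 and 731 CPM (0.45, SE 0.08, adjusted p = 0.0062). Both kept their call in all 17 alternatives. RPL29 (0.50, SE 0.11) and RPL10 (0.47, SE 0.11) kept theirs in 14 of 17. Others among the 15 were RPL12, RPL36AL, RPL36A, RPL34, RPL17, RPL7A, RPS26, RPS24, RPL7 and RPL5; ribosomal protein genes have many processed copies in the genome, which makes their single-gene counts uncertain. The count of 15 was 9, 18 and 5 without control replicates 1, 2 and 3, 15, 5 and 3 without shLMO2-1 replicates 1, 2 and 3, and 31 with the GC and length trends removed, with a median of 0.231 in that setting.

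Of 58 tested ribosome biogenesis genes, 0 rose and 14 fell (24.1%, against 3.88% of all genes), 11 (19.0%) were positive, and the median was −0.186. The list's median deviation by library was 0.043, −0.028 and −0.009 in the controls and −0.21, −0.153 and −0.159 in the shLMO2-1 libraries. BYSL, which acts in small-subunit maturation, fell from 54.4, 54.02 and 46.7 to 36.3, 39.7 and 36.1 CPM (−0.47, SE 0.10, kept in 14 of 17), and LTV1, a small-subunit export factor, from 48.3, 38.6 and 37.5 to 32.5, 31.1 and 27.6 CPM (−0.45, SE 0.11, kept in 12). TAF1D, a subunit of the RNA polymerase I selectivity factor, fell from 54.8, 48.1 and 50.3 to 37.7, 39.03 and 38.1 CPM (−0.42, SE 0.08, kept in all 17). DDX10, a nucleolar helicase, had the lowest support of the 4, with a kept call in 8 of 17. The count of 14 ranged from 4 without shLMO2-1 replicate 3 to 14 without control replicate 2 when 1 library was left out, and was 16 with the GC and length trends removed. Translation factors were mixed, with 4 higher and 3 lower of 58 and a median of 0.014. EEF2, the elongation factor of ribosome translocation, rose from 2103, 2500 and 2369 to 2745, 3031 and 3030 CPM (0.34, SE 0.07, kept in 15), and EEF1G rose by 0.39 (SE 0.10, kept in 12). The tRNA synthetases had 1 higher and 1 lower gene of 38, where WARS, the tryptophanyl-tRNA synthetase, rose from 171, 186 and 176 to 239, 244 and 249 CPM (0.46, SE 0.06, adjusted p = 0.000943).

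**Figure D2:**
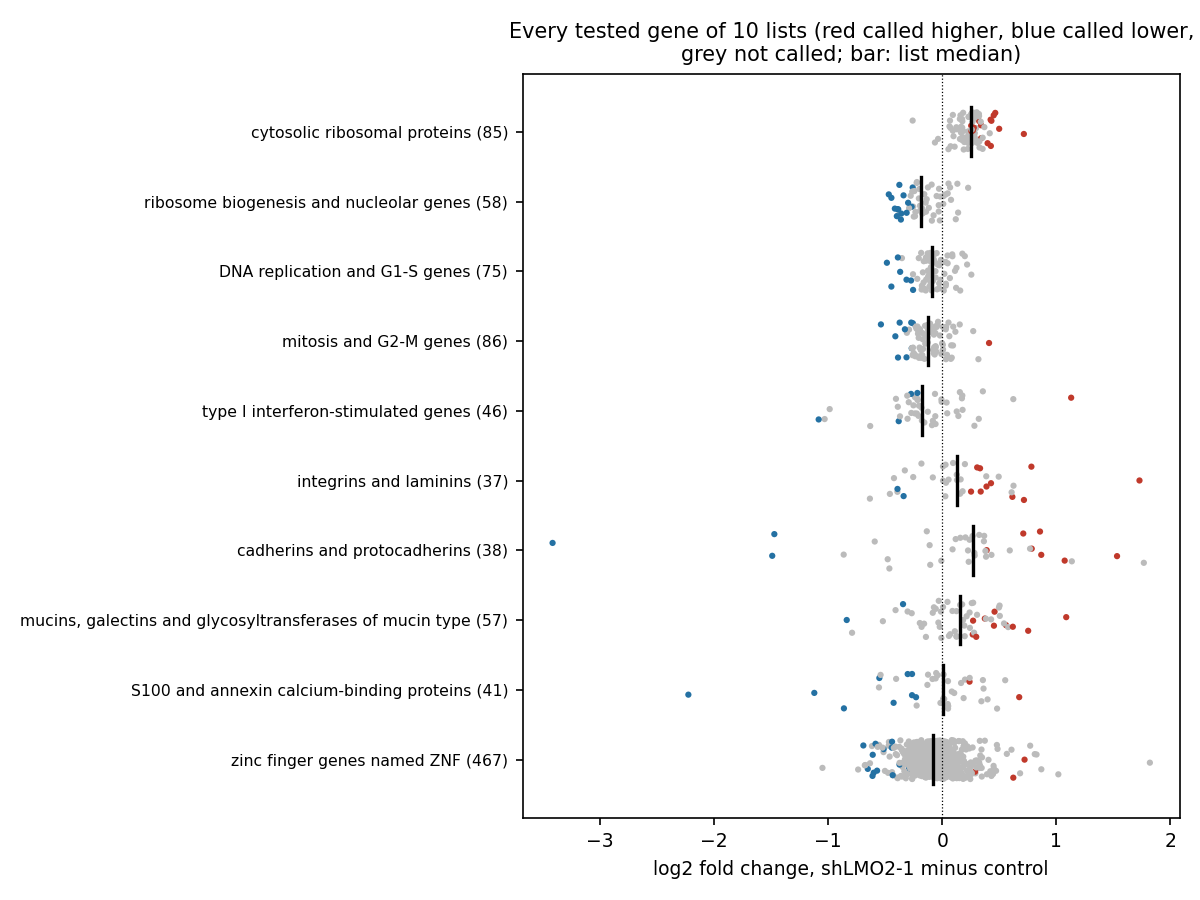
log2 fold change (shLMO2-1 over control) of every tested gene in 10 gene lists, 1 point per gene and a bar at the list's median. The ribosomal protein genes lie almost wholly above 0 with a median of 0.255, and the ribosome biogenesis genes mostly below it with a median of −0.186.

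Most called cell-cycle genes fell. Of 75 tested DNA replication and G1-S genes, 0 rose and 7 fell (9.33%, against 3.88% of all genes), with a median of −0.09 and 25.3% positive. The count of 7 was 3 without control replicate 3 or shLMO2-1 replicate 3, 4 without control replicate 2 or shLMO2-1 replicate 1 or 2, and 10 without control replicate 1. ORC3, an origin recognition subunit, fell from 73.2, 75.96 and 83.05 to 54.9, 57.02 and 54.00 CPM (−0.49, SE 0.07, adjusted p = 0.00206), ORC6, another subunit, from 44.1, 44.2 and 45.4 to 34.03, 30.8 and 33.2 CPM (−0.45, SE 0.07), and FANCI, a Fanconi anaemia repair protein, from 131, 123.2 and 123.1 to 96.5, 98.3 and 93.4 CPM (−0.39, SE 0.06). The remaining calls were PRIM2, EXO1, GINS2 and MCM3. Of 86 mitosis and G2-M genes, 1 rose and 9 fell (10.5%), with a median of −0.121 and 23.3% positive. PRC1, which bundles microtubules of the spindle midzone, fell from 125, 120.0 and 125 to 94.7, 93.2 and 89.9 CPM (−0.41, SE 0.06, adjusted p = 0.00335), together with SGO2, FBXO5, CKAP2, NCAPG, NEK2, DEPDC1, NDC80 and TTK. The exception was MYBL2, a transcription factor of the G2-M programme, which rose from 364, 403 and 394 to 491, 541 and 512 CPM (0.41, SE 0.06, adjusted p = 0.00227). The control libraries themselves spread widely on the G2-M list, with median deviations of −0.069, 0.006 and 0.076 against −0.076, −0.106 and −0.147 in the shLMO2-1 libraries. Instead of 9, 19 G2-M genes fell without control replicate 1, 5 without control replicate 2, 3 without control replicate 3, shLMO2-1 replicate 2 or 3 or shLMO2-2 replicate 2, and 4 with the GC and length trends removed; the G2-M list is poor in GC, with a median of 42.9%.

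Cell-cycle inhibitors and regulators outside those lists moved singly. CDKN1C, the p57 inhibitor, fell from 18.96, 21.9 and 20.7 to 12.1, 13.01 and 13.2 CPM (−0.68, SE 0.10) and CDKN2B, the p15 inhibitor, from 65.5, 68.9 and 74.8 to 49.1, 51.9 and 54.4 CPM (−0.43, SE 0.09, kept in 14 of 17). CDK14 fell by 0.63 on the log2 scale (SE 0.11) and CDK6, a G1 kinase, rose by 0.46 (SE 0.12, kept in 8). BTG3, an antiproliferative gene, fell from 71.4, 60.99 and 60.5 to 28.97, 28.6 and 22.8 CPM (−1.26, SE 0.10). MZT1, a small subunit of the gamma-tubulin ring complex, fell from 47.8, 44.1 and 39.02 to 21.4, 20.7 and 19.6 CPM (−1.09, SE 0.09, adjusted p = 0.000116). For both, the shLMO2-1 libraries lay close together and well below the controls. Of the tubulins, TUBB2B rose by 0.93 (SE 0.13) and TUBA1A by 0.60 (SE 0.11). Among 37 p53 target genes 1 rose and 3 fell (10.8% called, near the 8.42% of all genes). TP53I3 was higher (0.64, SE 0.14, kept in 14 of 17) and GADD45A (−0.48, SE 0.08), PLK2 (−0.44, SE 0.05) and FBXO22 lower. TNFRSF10D, a decoy receptor for TRAIL, fell by 1.07 on the log2 scale (SE 0.18), 1 of 3 lower and 1 higher of 46 tested genes of the BCL2 family and death receptors.

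In growth factor signalling EGFR rose, and the called genes of the ERK output and immediate early list went both ways. EGFR, which MDA-MB-468 cells express at a high level, was at 6260, 4784 and 5370 CPM in the controls and 7516, 7937 and 7068 CPM in the shLMO2-1 libraries (0.46, SE 0.09, adjusted p = 0.0123, kept in 15 of 17), the only call among 22 EGFR family receptors and ligands. Of 46 tested genes of ERK output and immediate early response, 6 rose and 5 fell (23.9% called, against 8.42% of all genes, median 0.077). DUSP6, the phosphatase that acts on ERK, rose from 6.09, 4.97 and 5.66 to 11.5, 10.6 and 10.6 CPM (0.96, SE 0.13), ETV4, an ETS factor downstream of ERK, from 11.8, 10.1 and 11.3 to 18.4, 19.8 and 20.2 CPM (0.82, SE 0.13), and the inhibitor SPRY1 from 3.13, 4.66 and 4.07 to 6.97, 6.97 and 8.51 CPM (0.91, SE 0.19, kept in 16). ETV5, SPRY2 and CCND1 made up the remainder of the 6. ETV4, JUN and KLF6 are named here after their values were seen. Going the other way, ATF3, a stress-induced factor, fell from 73.05, 65.1 and 68.7 to 31.9, 32.8 and 31.4 CPM (−1.11, SE 0.08, adjusted p = 3.33e-05), and CTGF, a matricellular protein, from 34.96, 28.3 and 27.2 to 12.9, 14.2 and 13.4 CPM (−1.16, SE 0.11, adjusted p = 0.000258). JUN fell by 0.36 (SE 0.07) and KLF6 by 0.42 (SE 0.07) on the log2 scale. DUSP1, of the same gene family as DUSP6, was the last of the 5. Apart from DUSP6, SPRY1, SPRY2 and DUSP1, the DUSP, SPRY and SPRED genes of the list were not called in either direction. The count of 6 higher genes ran from 2 without shLMO2-1 replicate 3 to 9 without control replicate 1.

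YAP-TEAD effectors and targets were divided, with 3 higher and 5 lower of 38 (21.1% called, against 8.42% of all genes) and a median of 0.027. CTGF belongs to that list too, and GADD45A, GADD45B, VGLL3 and VGLL4 fell with it, whereas NT5E, the ecto-5'-nucleotidase that makes adenosine, rose from 181, 167 and 165 to 247, 286 and 275 CPM (0.66, SE 0.07, adjusted p = 0.000414), as did SAV1 (0.56, SE 0.11, kept in 15 of 17) and NF2, both upstream brakes of YAP. In the TGF-beta and BMP family, 3 of 43 rose and 1 fell (9.3% called, near the 8.42% of all genes, median 0.068). INHBA and BMP2, described above, moved in opposite directions. ENG, a co-receptor also used as an endothelial marker, rose from 19.6, 20.7 and 25.1 to 34.8, 37.3 and 31.1 CPM (0.66, SE 0.11), and BAMBI, a pseudoreceptor, by 0.37 (SE 0.10, kept in 9). Among 26 SMADs and SMAD targets, LDLRAD4, an inhibitor of SMAD activation, fell from 8.87, 8.098 and 7.82 to 3.83, 2.93 and 4.15 CPM (−1.18, SE 0.16), and SMAD6, an inhibitory SMAD, rose from 16.4, 12.4 and 14.96 to 21.4, 21.5 and 20.97 CPM (0.55, SE 0.11, kept in 16).

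WNT genes had 5 higher and 3 lower of 50 tested (16.0% called, against 8.42% of all genes). Their median was 0.17, and 0.089 with the GC and length trends removed. TCF7L1, a repressive TCF, rose from 69.6, 58.8 and 64.97 to 109, 97.05 and 90.3 CPM (0.62, SE 0.09), the receptor FZD4 from 16.5, 13.02 and 13.8 to 21.9, 22.04 and 23.6 CPM (0.64, SE 0.12), and the ligand WNT4 from 17.7, 22.9 and 18.1 to 27.7, 29.5 and 28.4 CPM (0.54, SE 0.10, kept in 16 of 17). WNT10A, another ligand, was lower (−0.82, SE 0.21, kept in 9). In the Notch pathway, the ligands went apart: JAG2 rose from 7.88, 7.17 and 11.2 to 13.2, 16.5 and 16.1 CPM (0.80, SE 0.17, kept in 14) and JAG1 fell from 174, 148 and 160.5 to 129, 122 and 108 CPM (−0.42, SE 0.09, kept in 14). NOTCH1 rose by 0.44 (SE 0.08, kept in all 17) and HES2 by 1.07 (SE 0.24, kept in 14), so that 3 of 38 Notch genes rose and 2 fell (13.2% called). The list of haematopoietic cytokine receptors and ligands, with 2 higher and 2 lower of 24, held CSF3R and also IL7R, the interleukin-7 receptor, which rose from 13.8, 12.6 and 13.4 to 24.8, 31.2 and 25.5 CPM (1.03, SE 0.11, adjusted p = 0.000424). LEPR, the leptin receptor, fell from 29.6, 31.1 and 27.02 to 19.9, 18.1 and 20.4 CPM (−0.59, SE 0.09). Downstream of such receptors, STAT3 fell from 443, 433 and 424 to 368, 375 and 349.5 CPM (−0.25, SE 0.05, kept in 16), and BCL6 from 27.3, 26.8 and 30.4 to 19.3, 17.7 and 21.5 CPM (−0.53, SE 0.10); 1 of 48 JAK-STAT genes rose and 3 fell.

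Of 46 tested interferon-stimulated genes, 1 rose and 4 fell (8.7%, against 3.88% of all genes), 28.3% were positive, and the median was −0.18. The list's median deviation by library was 0.009, 0.004 and −0.02 in the controls and −0.128, −0.121 and −0.197 in the shLMO2-1 libraries. OAS3, which makes the activator of RNase L, fell by 0.38 (SE 0.09, kept in 13 of 17) and IFIH1, the RNA sensor MDA5, by 0.27 (SE 0.07, kept in 7) on the log2 scale. BST2, or tetherin, a membrane protein that holds enveloped viruses, was the 1 that rose, from 12.99, 16.4 and 15.01 to 30.4, 33.5 and 33.4 CPM (1.13, SE 0.10, adjusted p = 0.00012). The 4 lower calls were 0 without control replicate 3, without shLMO2-1 replicate 2 or without shLMO2-1 replicate 3, and 5 without control replicate 1. Among 28 genes of antigen presentation 2 rose and 2 fell, with MICB, a stress ligand of NK cells, higher (0.64, SE 0.10) and TAP1, the peptide transporter, lower (−0.40, SE 0.10, kept in 11). Of 47 NF-kB and chemokine genes 2 rose and 1 fell, with LCN2, an iron-siderophore carrier, going from 14.9, 14.4 and 15.5 to 27.9, 27.7 and 30.00 CPM (0.93, SE 0.13).

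Called genes were frequent in the adhesion and matrix lists. Of 37 tested integrin, laminin and focal-adhesion genes, 10 rose and 2 fell (32.4% called, against 8.42% of all genes), with a median of 0.13 and 73.0% positive. ITGB5, the beta-5 integrin of vitronectin receptors, rose from 101, 113 and 109.8 to 178, 176 and 177 CPM (0.72, SE 0.06, adjusted p = 0.000111), and ITGB4, the hemidesmosomal integrin, from 106, 105 and 113 to 142, 154 and 141 CPM (0.43, SE 0.07). HSPG2, the basement-membrane proteoglycan perlecan, rose from 29.1, 20.04 and 26.5 to 40.2, 40.5 and 35.1 CPM (0.62, SE 0.13, kept in 15 of 17), and ITGB2, the leukocyte integrin chain, from 3.31, 5.54 and 4.33 to 7.65, 6.74 and 8.37 CPM (0.78, SE 0.21, kept in 9). ITGAL, FERMT2, LAMB2, PXN, LAMB1 and TLN1 were the other members that rose; ITGAV and LAMA4 fell. ITGAL and ITGB2 are chains of the leukocyte integrin LFA-1, and 2 of 10 leukocyte markers, CD14 and CD68, rose, from 1.33, 1.23 and 0.793 to 2.31, 1.93 and 3.56 CPM (kept in 10 of 17) and from 0.638, 0.666 and 0.582 to 2.14, 1.17 and 2.04 CPM (kept in 12). Of the other markers ITGAM was at 4.93, 6.05 and 4.55 CPM in the controls and 2.87, 3.46 and 3.69 CPM in the shLMO2-1 libraries (−0.63, adjusted p = 0.0618), LCP1 at 1.91, 1.38 and 1.96 and 1.01, 1.47 and 1.25 CPM (−0.49, adjusted p = 0.424) and CSF1R at 5.62, 3.895 and 3.96 and 5.62, 5.33 and 7.25 CPM (0.43, adjusted p = 0.237), none of them called, and TYROBP and CD3E were at 0. The part of other cells in these values was not tested. The count of 10 fell to between 4 and 8 when control replicate 2 or 3, any shLMO2-1 library or any shLMO2-2 library was left out, and was 10 without control replicate 1.

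Cadherins and protocadherins had the highest median of the 61 lists, 0.274, with 7 higher and 3 lower of 38 (26.3% called). The count of 7 was 4 without control replicate 3 or shLMO2-1 replicate 1 or 2. The gene PCDHGB5, of the clustered gamma-protocadherins, rose from 22.8, 20.7 and 24.4 to 51.4, 50.5 and 40.8 CPM (1.07, SE 0.10, adjusted p = 0.00023), and PCDHGA7 and PCDHGB1 rose too. PCDHGA12, an A-type member of the same cluster, fell. Members of this cluster share their 3' exons, so the split of reads between them is uncertain. CDH24 rose from 11.7, 15.1 and 14.5 to 22.8, 21.2 and 27.4 CPM (0.79, SE 0.13), and PCDH8, CLSTN1 and CLSTN2 rose as well, whereas FAT2, an atypical cadherin of squamous epithelium, fell from 8.64, 6.61 and 6.56 to 2.48, 2.75 and 2.51 CPM (−1.49, SE 0.20). FAT2 is named after its value was seen.

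Collagen genes and their enzymes included 7 that rose and 2 that fell of 37 (24.3% called, against 8.42% of all genes), with a median of 0.057. The 7 became 3 without shLMO2-1 replicate 2 or shLMO2-2 replicate 2 and 4 without control replicate 2 or shLMO2-1 replicate 1 or 3. COL5A2, a fibrillar collagen chain, rose from 14.8, 13.3 and 12.1 to 24.02, 21.2 and 20.6 CPM (0.71, SE 0.11), and COL8A2, COL13A1, LOX, LOXL2 and COLGALT1 rose along with COL12A1. The 2 that fell encode basement-membrane collagen IV: COL4A5 went from 47.7, 45.05 and 41.5 to 26.9, 21.9 and 24.9 CPM (−0.86, SE 0.11, adjusted p = 0.000929), together with COL4A1. Matrix glycoproteins were split 4 higher to 3 lower of 36. FN1, fibronectin, rose from 65.5, 49.3 and 53.7 to 99.9, 98.8 and 90.8 CPM (0.78, SE 0.10) and LGALS1, the lectin galectin-1, from 14.3, 19.3 and 15.5 to 31.7, 33.5 and 39.5 CPM (1.09, SE 0.14). Of 26 metalloproteinases and inhibitors 3 rose and 0 fell: the inhibitors TIMP3, from 13.97, 15.4 and 18.03 to 25.8, 28.01 and 31.8 CPM (0.85, SE 0.12), and RECK (0.72, SE 0.14), and the protease MMP7 (0.28, SE 0.07, kept in 11 of 17). SERPINE2, a protease inhibitor of thrombin and urokinase, rose by 0.75 (SE 0.10), KLK10, a kallikrein, fell by 0.85 on the log2 scale (SE 0.10), and A2M, the broad protease inhibitor, fell by 0.61 (SE 0.12).

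**Figure D3:**
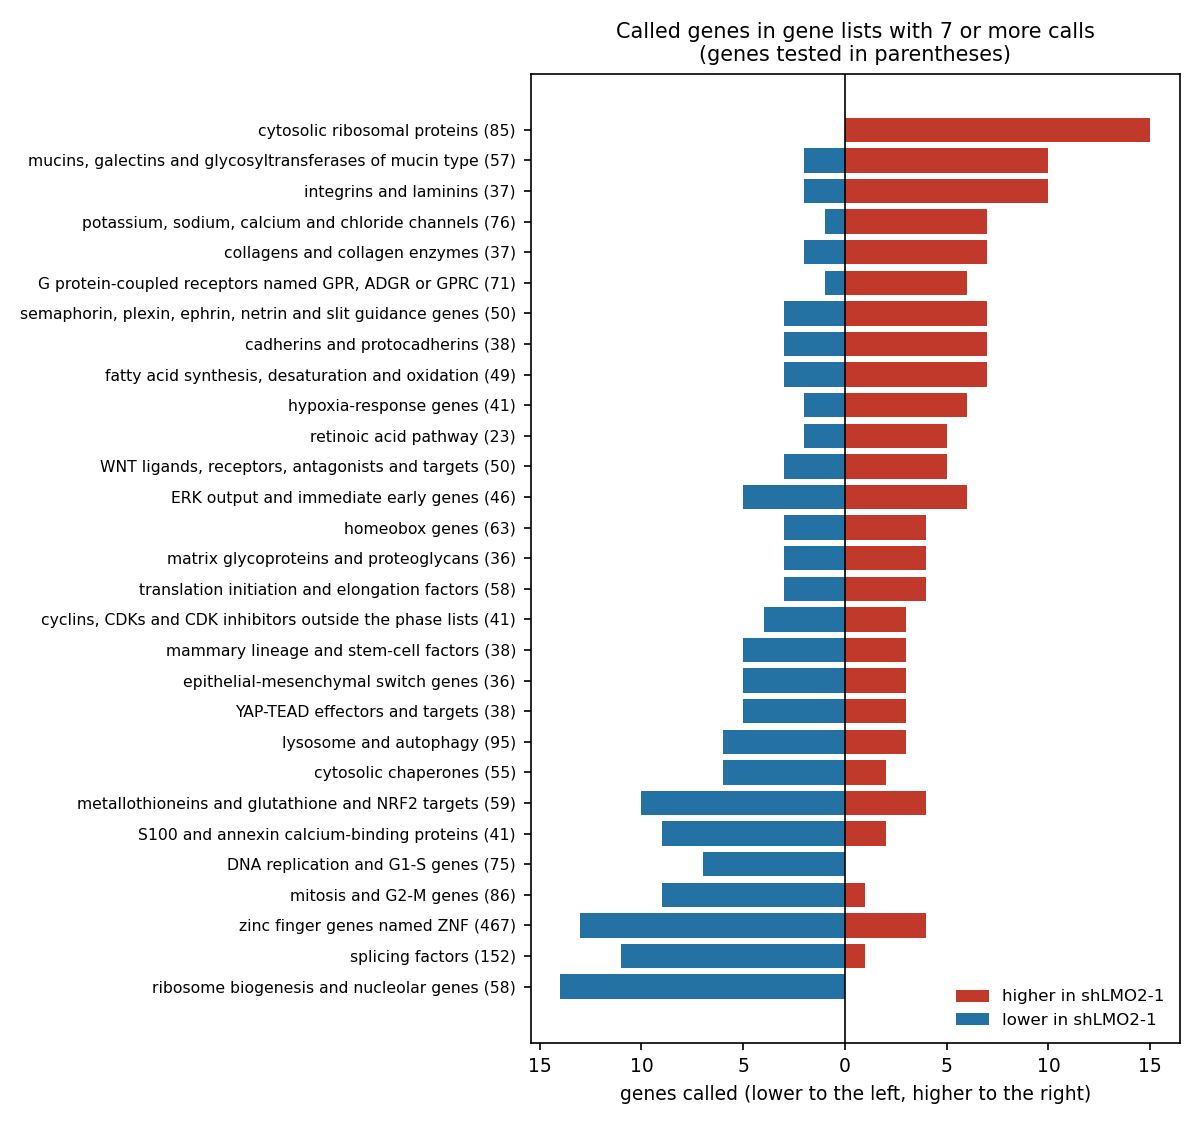
Number of tested genes called higher (to the right of 0) and lower (to the left) in shLMO2-1 against control, for the 29 gene lists with 7 or more calls. Ribosomal protein genes reach 15 to the right with 0 to the left, ribosome biogenesis genes 14 to the left with 0 to the right, and integrins and laminins 10 to the right with 2 to the left.

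Epithelial markers shifted in both directions. Of 25 tested keratins 3 rose and 3 fell: the simple-epithelial KRT8 rose from 1705, 2000 and 1913 to 2228, 2429 and 2612 CPM (0.37, SE 0.07, kept in 16 of 17) and KRT81, a hair-type keratin, from 238, 268 and 229 to 339.8, 318 and 393 CPM (0.52, SE 0.09), and KRT15 rose by 0.61 (SE 0.14, kept in 12). Basal KRT14 fell from 21.4, 25.1 and 21.8 to 14.7, 15.2 and 17.5 CPM (−0.53, SE 0.13, kept in 13), and KRT5, its usual partner and 1 of the most abundant transcripts, from 3208, 3156 and 3245 to 2483, 2594 and 2867 CPM (−0.27, SE 0.06, kept in 13). AGR2, a secretory-pathway protein of luminal cells, rose from 6.78, 7.23 and 7.24 to 13.2, 13.4 and 16.9 CPM (1.03, SE 0.14). KRT5 and AGR2 are named after their values were seen. The summed level of 9 markers of hormone receptor-positive or HER2-positive epithelium, to which AGR2 belongs, was 300.1 to 326.1 CPM in the controls and 266.7 to 287.0 CPM in the shLMO2-1 libraries, with PGR and TFF1 at 0 in all 6. FOXC1, a transcription factor of basal breast cancer, rose from 44.5, 51.8 and 55.9 to 83.3, 82.8 and 82.2 CPM (0.71, SE 0.09), whereas EN1, a homeobox factor, fell from 8.29, 7.79 and 8.46 to 5.74, 3.399 and 4.15 CPM (−0.88, SE 0.18, kept in 15). Of the junction genes, GJB2, connexin 26, rose from 6.55, 4.87 and 5.39 to 11.1, 13.7 and 12.9 CPM (1.16, SE 0.14) and CLDN8, a claudin, from 9.68, 9.02 and 9.15 to 18.9, 17.5 and 22.4 CPM (1.08, SE 0.13), in a list with 3 higher and 2 lower of 46.

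In the list of S100 proteins, annexins and other calcium-dependent proteins, most called members fell. Of its 41 tested genes 2 rose and 9 fell (22.0%, against 3.88% of all genes), although the list's median was 0.008. S100A4, a metastasis-associated S100 protein, fell from 186, 224 and 215 to 114, 109.6 and 120.3 CPM (−0.86, SE 0.08, adjusted p = 0.00023), S100A3 from 26.4, 35.4 and 35.7 to 12.8, 14.1 and 18.1 CPM (−1.12, SE 0.15), and ANXA6 from 102, 131 and 127 to 78.1, 89.4 and 77.7 CPM (−0.55, SE 0.10). S100A6, ANXA8 and ANXA8L1 fell as well, and so did CALB2, CAPN2 and CAPN7, which are neither S100 proteins nor annexins. ANXA8 and ANXA8L1 are near-identical copies and their split is uncertain. S100A8, 1 of the 2 that rose, went from 11.8, 13.4 and 19.4 to 22.7, 20.9 and 27.8 CPM (0.68, SE 0.17, kept in 8 of 17). TAGLN, an actin-binding protein of contractile cells, fell from 7.13, 7.58 and 6.24 to 3.49, 2.696 and 3.89 CPM (−1.06, SE 0.18), in the epithelial-mesenchymal list in which FN1 rose. That list had 3 higher and 5 lower of 36, and its members thus did not move 1 way. Axon guidance genes had 7 higher and 3 lower of 50: besides SEMA6B, SEMA3A rose from 6.84, 8.25 and 6.34 to 16.6, 17.4 and 13.4 CPM (1.15, SE 0.14) and the receptor EPHB2 from 48.9, 39.2 and 39.7 to 70.9, 70.5 and 69.6 CPM (0.72, SE 0.09), while NEO1, a netrin and RGM receptor, fell from 38.7, 37.1 and 37.9 to 25.1, 23.03 and 18.7 CPM (−0.76, SE 0.10).

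In lipid metabolism the desaturases FADS1 and FADS2 rose. Of 49 tested genes of fatty acid metabolism, 7 rose and 3 fell (20.4% called, against 8.42% of all genes), with a median of 0.035. The count of 7 stayed between 6 and 9 when any 1 library was left out. FADS1, the delta-5 desaturase next to FADS2, rose from 20.2, 20.8 and 22.9 to 39.3, 40.7 and 39.4 CPM (0.90, SE 0.10, adjusted p = 0.000443); the annotated FADS1 and FADS2 overlap, so some reads of 1 may be counted for the other. The other desaturases of the list did not pass: SCD was at 0.13 (adjusted p = 0.0824), SCD5 at −0.25 (adjusted p = 0.0643) and FADS3 at 0.27 (adjusted p = 0.218). The elongase ELOVL6 rose from 6.49, 6.15 and 6.34 to 9.84, 8.91 and 9.82 CPM (0.59, SE 0.11), and MGLL, the monoacylglycerol lipase, from 19.5, 17.6 and 18.4 to 27.00, 28.4 and 26.04 CPM (0.55, SE 0.09). ACADVL, ACSS2 and HADHB were the others that rose, and ME1, ACADM and ELOVL5 fell. ELOVL5, which extends the products of the desaturases, thus went the other way from FADS1 and FADS2. ELOVL5 and ME1 lie on chromosome 6, where 75 of 777 tested genes fell. Outside chromosomes 6, 9 and 14 the list had 7 higher and 1 lower of 42. Cholesterol synthesis genes had 2 higher and 0 lower of 34, with SREBF2, their master regulator, at 0.19 (SE 0.05, kept in 5 of 17). Of 36 glycolytic genes 4 rose and 0 fell, at low support: LDHA (0.28, SE 0.06) and PC (0.39, SE 0.08) kept their call in 14 of 17, GAPDH (0.32, SE 0.09) in 9 and HK1 (0.22, SE 0.06) in 5. The count was 0 without control replicate 3 and without shLMO2-1 replicate 2 or 3.

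Of 41 tested hypoxia-response genes, 6 rose, CA9 among them (14.6%, against 4.54% of all genes), and 2 fell, with a median of 0.055. The number that rose lay between 1 and 4 when any 1 library was left out. DDIT4, an inhibitor of mTORC1, was higher (0.48, SE 0.13, kept in 9 of 17), as were LOX, LOXL2, ERO1A and HK1. VEGFA, the angiogenic growth factor, was in the other direction, from 90.1, 87.95 and 85.96 to 73.3, 57.2 and 70.5 CPM (−0.39, SE 0.09, kept in 14), and BHLHE41 fell by 0.70 on the log2 scale (SE 0.16, kept in 14). PDGFC, another angiogenic ligand, rose from 38.5, 45.05 and 44.04 to 77.00, 71.4 and 75.6 CPM (0.81, SE 0.08, adjusted p = 0.000217), 1 of 2 higher and 1 lower of 30 angiogenic and endothelial genes.

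Of 22 tested tryptophan-kynurenine enzymes and AHR targets, 3 rose and 3 fell, TDO2 among them. KYNU, the kynureninase, fell from 159, 162 and 150.1 to 90.4, 103 and 103 CPM (−0.67, SE 0.07, adjusted p = 0.000377), and DDC, the aromatic amino acid decarboxylase, from 12.2, 12.8 and 13.6 to 6.52, 5.16 and 6.92 CPM (−1.06, SE 0.15). The 3 genes that rose in the same list have other roles: CYP1A1, an AHR-induced monooxygenase, went from 73.9, 130.1 and 97.6 to 239, 167 and 171 CPM (0.93, SE 0.21, kept in 15 of 17), SLC7A5, the large neutral amino acid transporter, from 563, 616 and 603 to 799.9, 776 and 736 CPM (0.38, SE 0.05), and WARS is given above. In the retinoid list 5 of 23 rose and 2 fell. STRA6, the cellular receptor for retinol-binding protein, rose from 19.8, 22.9 and 19.6 to 42.3, 48.5 and 46.3 CPM (1.14, SE 0.09, adjusted p = 6.66e-05), whereas ALDH1A1, which makes retinoic acid, fell from 89.4, 96.4 and 95.4 to 45.5, 45.3 and 46.7 CPM (−1.03, SE 0.07, adjusted p = 2.86e-05). In both genes the gap between the groups was wider than the spread within either. Amino acid transporters had 4 higher and 2 lower of 44, with SLC1A3, a glutamate carrier, at 0.43 (SE 0.06), ASS1, the argininosuccinate synthase, at 0.41 (SE 0.10, kept in 12) and SLC36A4 at −0.59 (SE 0.10).

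Glutathione and NRF2 target genes leaned to lower levels among the called members, with 4 higher and 10 lower of 59 and a median of −0.025. The 10 are 16.9% of the list, against 3.88% lower of all genes. GSTM3, a glutathione transferase, fell from 116, 162 and 145 to 69.1, 64.8 and 68.6 CPM (−1.07, SE 0.11, adjusted p = 0.000348), and AKR1C2, an aldo-keto reductase, from 106, 111 and 112 to 56.9, 59.7 and 65.1 CPM (−0.86, SE 0.08, adjusted p = 0.000135). AKR1C1, a near-identical neighbour, fell too, and both subunits of the enzyme that limits glutathione synthesis, GCLC and GCLM, as well as ABCC2, MGST1, SOD2, PRDX1 and ALDH1A1. ABCC3, a conjugate exporter, rose from 11.1, 13.2 and 12.6 to 21.2, 24.03 and 25.9 CPM (0.94, SE 0.11, adjusted p = 0.000679), with GSTP1, GSTZ1 and AKR1B1. The count of 10 lay between 7 and 11 when any 1 library was left out and was 13 with the GC and length trends removed. Of 82 respiratory-chain subunits encoded in the nucleus, 2 rose and 0 fell. Of 15 mitochondrially encoded genes 2 rose and 1 fell, and none of them passed with the GC and length trends removed. Chaperones had 2 higher and 6 lower of 55, with BAG2, a cochaperone of HSP70, falling from 41.3, 47.00 and 48.6 to 25.8, 29.9 and 31.7 CPM (−0.65, SE 0.11) and HSPH1 by 0.38 on the log2 scale (SE 0.09, kept in 12 of 17).

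The called share differed between large gene families. Zinc finger genes named ZNF had 4 higher and 13 lower of 467, or 3.64% called against 8.42% of all tested genes, with a median of −0.081. This list is poor in GC, with a median of 43.1%, and its median log2 difference was −0.053 with the GC and length trends removed. The 13 became 5 to 7 without control replicate 3, any 1 shLMO2-1 library or shLMO2-2 replicate 2. ZNF703, an oncogene of luminal breast cancer, rose from 34.1, 49.7 and 44.8 to 75.1, 68.4 and 68.9 CPM (0.72, SE 0.12), and ZNF140 fell from 15.1, 14.97 and 13.8 to 9.17, 8.97 and 9.82 CPM (−0.65, SE 0.11). Splicing factors had 1 higher and 11 lower of 152 (7.89% called), and among them SRSF11 fell from 167, 153 and 162 to 121, 120.0 and 114 CPM (−0.44, SE 0.07) and the kinase CLK4 from 27.9, 22.6 and 23.2 to 17.3, 17.4 and 13.8 CPM (−0.60, SE 0.12, kept in 16 of 17). Ion channels had 7 higher and 1 lower of 76 (10.5% called), including TRPM4, a calcium-activated cation channel (0.67, SE 0.11), and KCNK2, a background potassium channel (0.65, SE 0.09); TRPV4 fell (−0.76, SE 0.18, kept in 11). G protein-coupled receptors had 6 higher and 1 lower of 71 (9.86% called), with F2R, the thrombin receptor, going from 18.6, 21.2 and 22.7 to 31.1, 32.9 and 28.4 CPM (0.56, SE 0.11, kept in 16) and GPRC5B up by 0.70 (SE 0.11). The list of mucins, galectins and glycosyltransferases stood above the share of all tested genes, with 10 higher and 2 lower of 57 (21.1% called) and a median of 0.157. No mucin rose, MUC15 fell, and the members that rose were galectins and glycosyltransferases, not all of mucin type. The count of 10 was 5 without shLMO2-1 replicate 1 or 2 and 6 without control replicate 2 or 3 or shLMO2-1 replicate 3. The list's median deviation by library was 0.009, −0.011 and −0.02 in the controls and 0.182, 0.122 and 0.188 in the shLMO2-1 libraries. FUT8, which adds core fucose to N-glycans, rose from 16.4, 17.7 and 15.9 to 26.8, 26.1 and 23.7 CPM (0.62, SE 0.09) and LGALS9, galectin-9, by 0.75 (SE 0.11), while LGALS8, galectin-8, fell from 37.8, 43.05 and 42.1 to 22.9, 23.97 and 21.96 CPM (−0.84, SE 0.09, adjusted p = 0.000348). B3GNT3, GALNT7, ST3GAL4, B4GALT1, ST6GAL1, B4GALT5 and GALNT10, transferases of the Golgi, were among those that rose.

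Part of the changes followed whole chromosomes. On chromosome 14, 73 of 473 tested genes rose (15.4%) and 3 fell (0.634%), and 80.5% of the genes had a positive log2 difference, with a median of 0.18. The median over these genes of the deviation from the control mean was 0.002, 0.001 and 0.007 in the controls and 0.202, 0.198 and 0.177 in the shLMO2-1 libraries. The 3 shLMO2-1 libraries therefore lay close together and apart from the controls. The groups were also apart on chromosomes 1, 2, 6, 7, 9, 13, 15, 19 and 22, with a median log2 difference of only −0.015 on chromosome 15. On chromosome 14 all 8 segments of 10 Mb with 20 or more tested genes had a median above 0, from 0.068 to 0.291. Chromosome 6 went down, with 17 higher and 75 lower of 777, a median of −0.123 and library medians of 0.014, −0.004 and −0.007 in the controls against −0.095, −0.121 and −0.126. Each of its 13 segments had a median below 0, from −0.229 to −0.01. Chromosome 9 went up, with 58 higher and 9 lower of 589, a median of 0.109 and library medians of 0.004, −0.01 and 0.011 in the controls against 0.117, 0.107 and 0.111. Chromosome 9 was not uniform, since 7 of its 11 segments were above 0 and the segments ranged from −0.231 to 0.22.

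These shifts changed little with the GC and length trends removed, at 0.201 for chromosome 14, −0.116 for chromosome 6 and 0.099 for chromosome 9, whereas the medians of chromosomes 19 and 22 went from 0.061 to 0.0 and from 0.077 to 0.017. Of 250 segments of 10 Mb over all chromosomes, 4 had a median above 0.2, of which 3 lay on chromosome 14 and 1 on chromosome 9. Another 4 were below −0.2, of which 3 lay on chromosome 6 and 1 on chromosome 9. The 3 chromosomes, named after their values were seen, hold 12.5% of the tested genes and 19.0% of the called genes, 148 higher and 87 lower. On the remaining chromosomes 520 genes rose and 484 fell, or 7.8% of those tested. The shLMO2-2 libraries, which share the control libraries with this comparison, were at 0.156, 0.162 and 0.152 for chromosome 14, −0.135, −0.149 and −0.166 for chromosome 6 and 0.173, 0.159 and 0.13 for chromosome 9. Whether the number of copies of these chromosomes differs between the infected populations was not tested.

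**Figure D4:**
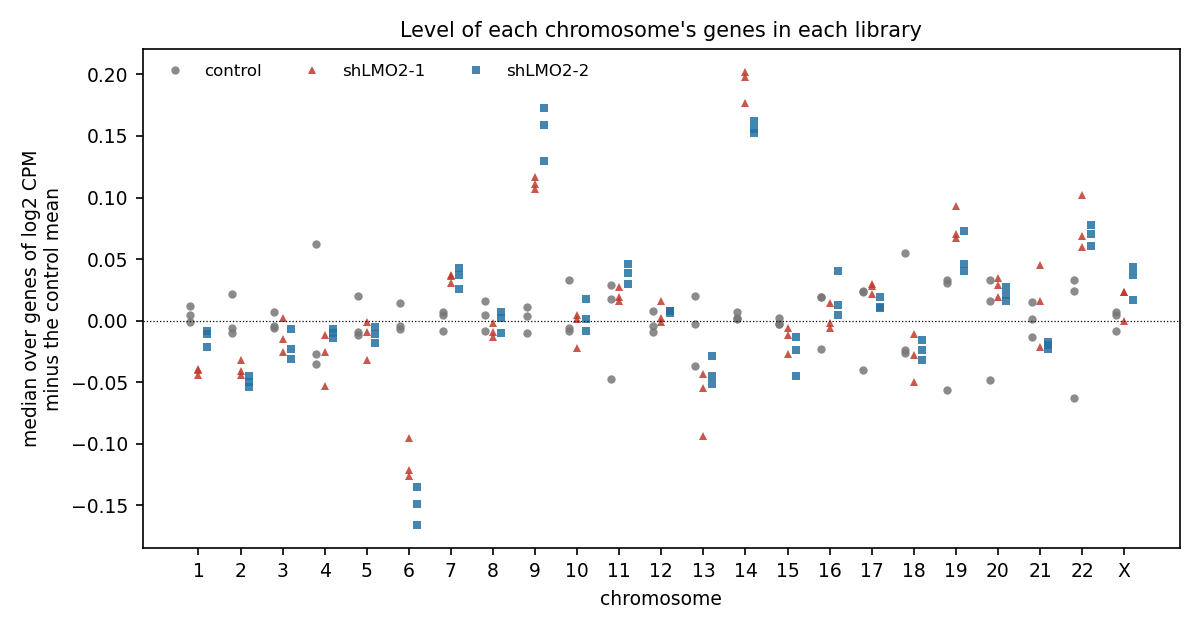
Median over the tested genes of each chromosome of log2 CPM minus the control mean, for each of the 9 libraries. The 3 shLMO2-1 libraries lie at 0.177 to 0.202 on chromosome 14, at 0.107 to 0.117 on chromosome 9 and at −0.126 to −0.095 on chromosome 6, while the 3 controls stay within 0.014 of 0 on these chromosomes.

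Several gene lists kept most of their calls outside these 3 chromosomes. There, ribosomal protein genes kept 11 higher of 74 with a median of 0.255, ribosome biogenesis genes 12 lower of 53, integrins and laminins 8 higher and 1 lower of 33, and the list of mucins, galectins and glycosyltransferases 8 higher and 2 lower of 48. In the G1-S list 4 of 70 fell outside them, since ORC3, PRIM2 and MCM3 lie on chromosome 6. The chaperone list had 3 lower of 40 outside them, against 6 of 55 over all chromosomes. The antigen presentation list cannot be judged apart from chromosome 6, because only 9 of its 28 tested genes lie elsewhere and 0 of those were called. Of the genes named above, those on chromosome 6 include XPO5, BYSL, LTV1, BAG2, VEGFA, TAP1, CTGF, CRISP3, NT5E, COL12A1, FOXC1 and MICB. Those on chromosome 9 include CA9, SVEP1, ENG, LCN2 and ALDH1A1, and those on chromosome 14 include WARS, SAV1, JAG2, CDH24, FUT8 and RPS29. These genes were chosen by their calls and the size of their changes, so they exceed the chromosome medians in size by that choice. The part of the chromosome shifts in their changes was not tested. COL12A1, NT5E, FOXC1 and MICB rose against the direction of chromosome 6, and ALDH1A1 fell against that of chromosome 9.

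Because LMO2 complexes in blood cells sit on paired E-box and GATA motifs, the 250 bases before the start site were searched for these letters in RefSeq promoters (GRCh38.p14), available for 10545 of 14709 tested genes. The E-box CAGNTG was present on either strand in 36.8% of all these promoters, in 35.4% of those of genes that rose and in 34.2% of those of genes that fell. GATA was present in 34.1%, 30.1% and 36.1%. The composite, CANNTG followed after 7 to 10 bases by GATA on the same strand, was found in 76 promoters, or 0.721%, with 4 among genes that rose (0.781%) and 4 among genes that fell (0.907%). The shares were thus close to those of all tested promoters, and promoters of genes that rose had more GC (median 68.0%) and those of genes that fell less (62.8%) than all (65.2%). The 8 matches are printed because they are all the promoters of called genes with the composite; capitals mark the E-box and the GATA, and each match is given 5′ to 3′ on the strand that carries it.
APEX1: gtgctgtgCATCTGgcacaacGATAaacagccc
DHRS7B: gaagaacaCAGTTGgagaattcacGATA
FKBP5: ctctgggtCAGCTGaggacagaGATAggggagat
GYPC: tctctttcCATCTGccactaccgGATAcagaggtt
MNAT1: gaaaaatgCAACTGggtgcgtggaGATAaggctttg
SERPINE2: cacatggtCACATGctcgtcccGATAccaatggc
SNRPD3: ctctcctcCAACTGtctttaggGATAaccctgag
VGLL4: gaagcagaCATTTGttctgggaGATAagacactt
APEX1 encodes an abasic-site endonuclease, MNAT1 a subunit of the CDK-activating kinase, SNRPD3 a core protein of spliceosomal snRNPs, FKBP5 a glucocorticoid-induced immunophilin, GYPC the erythrocyte membrane protein glycophorin C and VGLL4 a TEAD cofactor. MNAT1 and APEX1 lie on chromosome 14 and FKBP5 on chromosome 6. The matches lie for APEX1 at chr14:20455021-20455053 (plus strand), for DHRS7B at chr17:21126714-21126741 (minus strand), for FKBP5 at chr6:35728652-35728685 (minus strand), for GYPC at chr2:126655917-126655951 (minus strand), for MNAT1 at chr14:60734554-60734589 (plus strand), for SERPINE2 at chr2:224031609-224031642 (minus strand), for SNRPD3 at chr22:24555509-24555542 (plus strand) and for VGLL4 at chr3:11604596-11604629 (plus strand). SERPINE2 was the most strongly raised of the 8 at a mean of 5 CPM or more (0.75, SE 0.10, adjusted p = 0.00176), and GYPC, at 0.638, 0.564 and 0.634 CPM in the controls and 0.113, 0.176 and 0.0659 CPM in the shLMO2-1 libraries, was near the limit of detection and kept its call in 5 of the 15 alternatives that gave it a value. A match describes the letters of the window and nothing about binding.

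Against shLMO2-2 the libraries with shLMO2-1 differed in few genes. The test between the hairpins called 113 of 14709 genes (0.768%), 62 higher in shLMO2-1 (0.422%) and 51 lower (0.347%). The hairpins share their 3 controls, so their values are given side by side. With shLMO2-2 against those controls, 726 genes were higher (4.94%) and 594 lower (4.04%). Of the 1239 genes called for shLMO2-1 against control, 75 also differed between the hairpins: 31 rose and were higher than in shLMO2-2, 36 fell and were lower, 2 rose but were lower than in shLMO2-2, and 6 fell but were higher. FADS2, for example, changed by 1.21 with shLMO2-1 and 0.36 with shLMO2-2, a difference of 0.85 (SE 0.08, adjusted p = 0.00039). Its levels were 52.5, 53.8 and 58.4 CPM in the shLMO2-2 libraries, all below the 3 of shLMO2-1. CRISP3 fell more with shLMO2-1, −1.28 against −0.50 (difference −0.78, SE 0.06, adjusted p = 0.000131), and SVEP1 and IL7R rose more, by 0.81 (SE 0.11) and 0.82 (SE 0.11). PRKACB, a catalytic subunit of protein kinase A, fell from 109.7, 111 and 112 to 78.1, 68.9 and 71.2 CPM with shLMO2-1 (−0.61, SE 0.07) and was at 126, 124 and 134 CPM with shLMO2-2, a difference of −0.82 (SE 0.07, adjusted p = 0.000215).

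Of the genes that differed most between the hairpins, some were near the control level with shLMO2-2 and some lay on the other side of it, whereas PCDH19 and FADS2 lay on the same side of the controls with both hairpins. XAGE2 was at 36.4, 37.9 and 38.7 CPM in the shLMO2-2 libraries, near the controls, and at 14.6, 16.5 and 18.4 CPM in those of shLMO2-1 (difference −1.19, SE 0.09, adjusted p = 0.000194). MZT1 was at 44.1, 41.7 and 47.04 CPM with shLMO2-2, again near the controls (difference −1.11, SE 0.09, adjusted p = 0.000238). MCAM, a melanoma and endothelial adhesion molecule, rose from 17.2, 16.8 and 18.3 to 28.7, 32.4 and 34.4 CPM (0.87, SE 0.14) and was at 11.9, 15.9 and 17.8 CPM with shLMO2-2 (difference 1.07, SE 0.14, adjusted p = 0.00452). TNC, the matrix protein tenascin-C, was at 102, 66.4 and 70.2 CPM in the controls, 122, 120.3 and 111 CPM with shLMO2-1 (kept in 11 of 17) and 53.01, 50.9 and 50.5 CPM with shLMO2-2, so that control replicate 1 was well above the other controls (difference between hairpins 1.19, SE 0.13, adjusted p = 0.00173). CYYR1 went from 28.2, 32.03 and 32.5 to 44.5, 40.5 and 42.3 CPM with shLMO2-1 and 21.6, 21.4 and 21.9 CPM with shLMO2-2 (difference 0.97, SE 0.08), and MMP7 from 106, 115 and 108 to 128, 139.9 and 130.4 and 73.02, 65.4 and 71.3 CPM (difference 0.93, SE 0.07). CYP4B1, a fatty acid and xenobiotic monooxygenase, fell from 17.9, 20.1 and 21.7 to 13.1, 13.3 and 10.9 CPM with shLMO2-1 and was at 24.5, 23.1 and 25.5 CPM with shLMO2-2 (difference −0.97, SE 0.11). PEX10, a peroxisomal ubiquitin ligase, behaved likewise, at 9.899, 10.7 and 9.76 CPM against 18.7, 18.9 and 21.6 CPM (difference −0.97, SE 0.12). BTG3 fell with shLMO2-1 and was at 52.5, 52.1 and 51.9 CPM with shLMO2-2 (difference −0.96, SE 0.10). PCDH19 was lower with shLMO2-2, at 0.174, 0.464 and 0.494 CPM, than with shLMO2-1, at 4.500, 3.69 and 3.69 CPM (difference 3.38, SE 0.35).

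**Figure D5:**
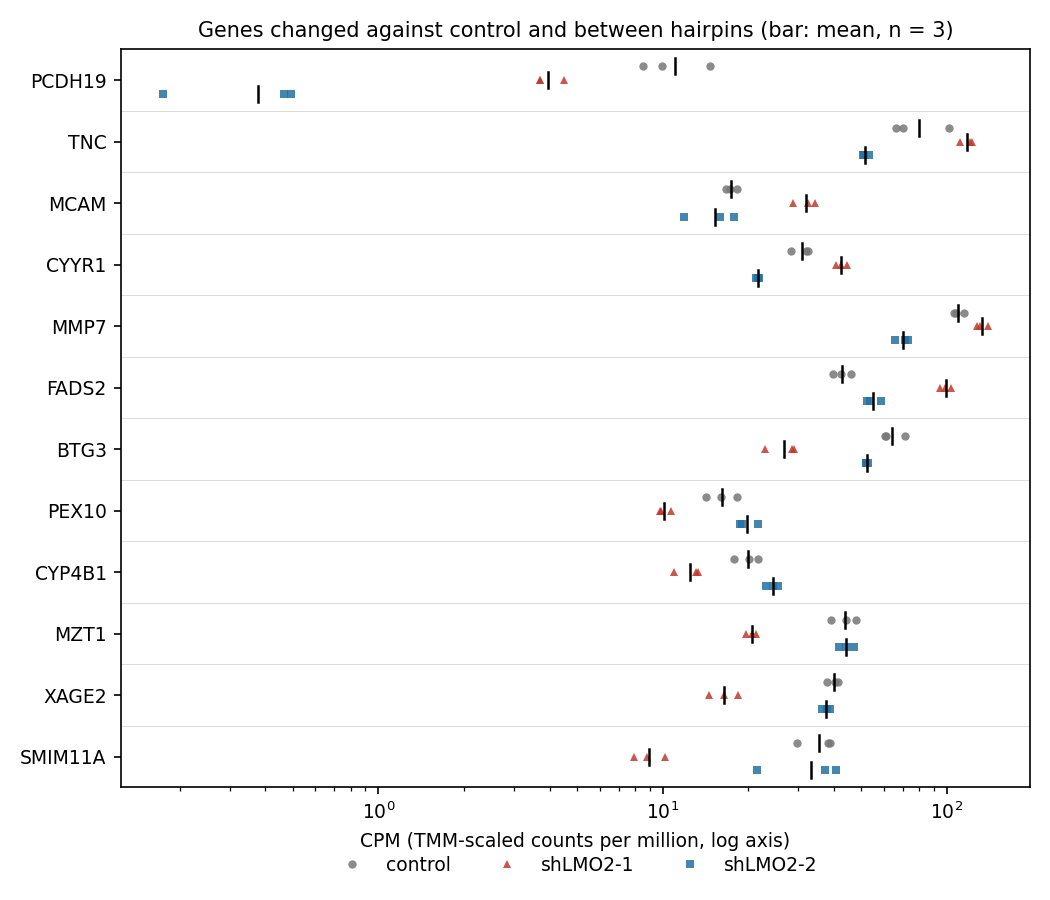
CPM in each of the 9 libraries for the 12 genes that were called against control and also differed most between the hairpins (6 in each direction). FADS2 and MCAM are highest in the shLMO2-1 libraries, XAGE2, MZT1 and BTG3 lowest in them, and TNC, MMP7 and CYYR1 lie above the controls with shLMO2-1 and below them with shLMO2-2.

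In the cyclic nucleotide list 1 of 28 rose, PDE5A (0.60, SE 0.10), and 3 fell. Homeobox genes had 4 higher and 3 lower of 63, where HOXA10 rose from 5.28, 5.74 and 5.66 to 8.94, 8.32 and 10.2 CPM (0.72, SE 0.15, kept in 16 of 17) and SIX2 fell (−0.61, SE 0.15, kept in 10). Histones had 1 higher and 2 lower of 43, with H2AFY2, a macroH2A variant, lower (−0.46, SE 0.08). Of 23 tested cancer-testis antigens 0 rose and 3 fell (13%, against 3.88% of all genes), among them XAGE2. Proteasome subunits (1 higher and 3 lower of 46), mitochondrial ribosomal proteins (2 and 2 of 78), lysosome and autophagy genes (3 and 6 of 95) and genes of the unfolded protein response (3 and 2 of 46) had medians between −0.033 and 0.015. In the last of these PDIA4, a chaperone of disulphide formation, rose by 0.25 (SE 0.05, kept in 16) and XBP1 fell by 0.28 on the log2 scale (SE 0.07, kept in 10).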

How the data were processed

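The authors deposited 1 table of estimated counts per gene for 9 libraries of MDA-MB-468 cells, 3 each with the empty vector, shLMO2-1 and shLMO2-2; 11.67% to 12.81% of values per library were not whole numbers, and all were rounded. Salmon 0.12, DESeq2 1.22.2 and GRCh38.p12 are named in the submitters' processing notes; the strand setting is not given in the sources used here. Library totals were 15494468 to 23069454 estimated counts. Poly(A) selection and a standard library kit are given in the labels' protocols.

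Symbols were matched to GENCODE 29 (56809 of 56809; 219 belong to several IDs). Genes were filtered with edgeR's filterByExpr (minimum count 10, minimum total 15), LMO2 being kept, which left 14709 genes with 99.91% of the counts. edgeR 4.0.16 in R 4.3.3 was used with TMM scaling and the quasi-likelihood F-test on a 3-group design over all 9 libraries, and p-values were adjusted by the Benjamini-Hochberg method over all tested genes with a threshold of 0.05. SE is the log2 fold change divided by the square root of F. The script was tested on simulated data.

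The comparison, the 61 gene lists and the rules for named genes were chosen with earlier results of these data known. Named were LMO2, the 12 largest increases and 12 largest decreases at a mean of 5 CPM or more without overlap, up to 4 called genes per list, the 6 largest differences from shLMO2-2 in each direction, and called genes that share a protein sequence with a gene moving the other way; other genes are said to be named after their values were seen, or stand as bare names in a list's count. There were 17 alternative settings, covering scaling, filters, DESeq2 1.42.0, the libraries in the fit, the replicate number as a term and the removal of GC and length trends, the last chosen after seeing the data. Promoters came from RefSeq (GRCh38.p14).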

Additional observations from a re-analysis of the deposited data

Results flagged for a closer look

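For 12 genes the effects of the hairpins differed in edgeR's test of the difference itself (log2, shLMO2-1 minus shLMO2-2). The difference was positive for PCDH19 (3.38), TNC (1.19), MCAM (1.07), CYYR1 (0.97), MMP7 (0.93) and FADS2 (0.85). It was negative for SMIM11A (−1.89), XAGE2 (−1.19), MZT1 (−1.11), CYP4B1 (−0.97), PEX10 (−0.97) and BTG3 (−0.96). Against the shared controls, TNC, CYYR1 and MMP7 rose with shLMO2-1 and had values of −0.62, −0.52 and −0.65 with shLMO2-2. The value of SMIM11A rests on the split of reads with SMIM11B, which was at 23.1, 22.5 and 25.9 CPM with shLMO2-1 and at 0.087, 18.9 and 0.315 CPM with shLMO2-2. The library shLMO2-2 replicate 2 thus stood apart from the other libraries with shLMO2-2 for that pair.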

How the results depend on the processing

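The 1239 called genes became 678 with only the groups compared in the fit and 560 to 1401 when 1 library was left out (673 without control replicate 3 and 691, 582 and 560 without shLMO2-1 replicates 1, 2 and 3). Genes higher (668) became 359 and 318 to 754, and genes lower (571) became 319 and 238 to 647, with 376 lower without shLMO2-2 replicate 2. Fewer libraries enter these fits. With the replicate number as a replicate block, 2214 genes were called, 1206 higher and 1008 lower. Control and shLMO2-1 libraries with the same number correlated at 0.296, −0.016 and 0.212 over their deviations. The highest correlations with another number were 0.04, 0.159 and −0.031, so replicates 1 and 3, but not 2, correlated best with their own number. The second principal component of log2 CPM (18.3% of variance) fell from replicate 1 to 3 in each group. It was at 14.1, −24.2 and −24.6 in the controls and 26.6, 13.3 and −7.6 with shLMO2-1. The labels name no pairing, and whether the numbers mark a shared batch was not tested. The main fit has no term for them. The 113 genes that differed between the hairpins became 378 without a filter, 180 with only the groups compared, 257 with the replicate block, 179 with GC and length trends removed, 310 with DESeq2 and 38 to 250 when 1 library was left out, with 61, 38 and 65 without shLMO2-1 replicates 1, 2 and 3, 60, 41 and 51 without shLMO2-2 replicates 1, 2 and 3 and 250 without control replicate 1. The cause of these moves was not tested. LMO2 (−2.44) was past the threshold without a filter (−2.43) and with the replicate block (−2.30), and ran from −3.47 to −1.74 when 1 library was left out, −2.91 without control replicate 1. The stricter count filter dropped it, and DESeq2 gave it no adjusted p.

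Of 221 named called genes, 119 kept their call in every alternative that gave a value and 0 changed direction. FAM156A, uncalled at 0.04, reversed to −0.0009 with the replicate block and ran from −0.18 without shLMO2-1 replicate 1 to 0.24 without shLMO2-1 replicate 2. Library totals as the only scaling turned the sign of 24 list medians, all at 0.035 or less in size; the removal of GC and length trends turned 18, the largest 0.091. Counts near the floor, as for LMO2, COL8A2 and GYPC, limit what the depth can show.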
